A study of Mus musculus with 6 samples.

Results

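The genes described here are 37 genes of apoptosis and of the p53 response, chosen by name with earlier results of these data known. They comprise the tumour suppressor gene Trp53 and its regulators, p53 target genes, death receptors, the BCL2 family, caspases with the apoptosome, and the inhibitor of apoptosis (IAP) genes. Transcripts were measured in whole kidneys of mouse embryos at E14.5 on 6 one-colour Agilent arrays, 3 from Sall1 knockouts and 3 from controls, all of a hybrid background of 129 and C57BL/6. A probe belonged to a member when its RefSeq accession did, and the brightest probe stood for the gene. Of the 37 members, 36 had such a probe (59 probes in all), Bok had none, and Hrk was not well above background on any array. The other 35 were tested among 26398 features (15238 named genes), and all 35 were well above background on all 6 arrays.

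The study used 2 ways of deleting floxed Sall1, a zinc finger transcription factor gene required for kidney formation. In the Six2Cre line the deletion was directed to nephron progenitors, with 2 controls (replicates 5 and 2) and 2 knockouts (replicates 7 and 9). In the line named for Sall1CreER the deletion was induced with tamoxifen at E12.5 and kidneys were taken 48 hours later, with 1 control (replicate 2) and 1 knockout (replicate 5). The line of each sample was read from its title together with the design text, and 1 label mentions tamoxifen for all 6 samples, so whether the Six2Cre embryos received it is not known. The title of the control of this pair reads wt/flox and that of its knockout CreER/flox, so the presence of CreER and the loss of Sall1 cannot be told apart there. Whether the controls of the Six2Cre line had the Cre transgene, which Sall1 sequence lay between the loxP sites, and whether an array held 1 embryo or several is not stated, and p-values therefore measure the spread between these samples alone. The kidneys were not sorted, and in such tissue fewer cells of a type and less RNA per cell cannot be told apart.

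In the p53 pathway, stress stabilizes the p53 protein, which MDM2 and MDM4 otherwise restrain, and p53 then raises transcription of genes for cell cycle arrest (Cdkn1a), stress adaptation (Sesn1, Sesn2) and death (Bbc3, Pmaip1, Bax, Fas). In the mitochondrial pathway, BH3-only proteins neutralize BCL2 and its pro-survival relatives or activate BAX and BAK, the mitochondria release cytochrome c (Cycs), and APAF1 then activates caspase 9. Nephron progenitors are known to die when survival factors or their transcriptional regulators are lost, p53 must be held in check by MDM2 in these cells, and mice without Bcl2 have small kidneys that become cystic.

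Values are log2 processed signals minus the array's 75th percentile, so 0 is that percentile, and differences are knockout minus control. Six2Cre control 5 and knockout 7 shared slide 1, and slide 2 held the remaining 4 arrays, so the Six2Cre difference is the mean of 2 within-slide pairs. The targeted gene Sall1 was -1.38 and -0.77 on the Six2Cre controls 5 and 2 and -2.65 and -2.00 on the knockouts 7 and 9, a 2.38-fold lower signal (limma adjusted p = 0.594). Sall1 was -1.28 on the CreER control and -4.06 on the CreER knockout, 6.86-fold lower, and where its probe lies relative to the deletion is not stated. All 15 markers of nephron progenitors, a cell type of the fetal kidney, were well above background on all 6 arrays, and these markers include Sall1 itself. They differed by a median of -1.15 in the Six2Cre line, where 15 of 15 were lower, and their summed linear level relative to the 75th percentile was 47.0 and 53.8 on the controls against 20.4 and 20.3 on the knockouts. Stroma markers differed by a median of 0.88 (10 of 11 higher) and macrophage and engulfment markers by 0.52 (19 of 27 higher). On Six2Cre control 2 the summed level of 15 muscle markers was 55.1, against 3.98 to 7.35 on the other 5 arrays. The CreER knockout array had 72.1% of its spots well above background and a negative control SD of 4.01, against 80.4% to 83.2% and 1.46 to 1.61 elsewhere.

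The 35 tested members differed little between Six2Cre knockouts and controls, and none passed the test. Their median difference was 0.05, beside 0.03 over all features, with 20 higher and 15 lower. Of the members, 24 (68.6%) lay within 0.25 of 0, beside 55.7% of all features. All features include ones well above background on as few as 2 arrays, unlike the members, so shares here and below are not like for like. Limma called 0 of 35 members at an adjusted p under 0.05 in the Six2Cre comparison, and 0% of the 26398 features were called. At an unadjusted p under 0.05 limma again gave 0 of 35 members, against 6.34% of all features, and the members' adjusted p ran from 0.903 to 1.00. With slide as a block, 3 members (8.57%) had a limma p under 0.05, against 11.6% of all features. These were Bcl2, Fas and Sesn1, and their lowest adjusted p was 0.371 by limma. With eBayes trend and robust besides the block, limma called 0 members against 2.38% of all features, and in the fit over both lines described further on 0 against 0.0455%. In the fit without slide, the median width of a member's 95% interval was 0.76 to either side of its difference. With 2 arrays a group and shifts between slides counted as spread, differences smaller than that could not be told from 0 there. The 2 Six2Cre controls, which were on different slides, lay farther apart than the knockout difference for 30 of 35 members (85.7%), against 65.5% of all features.

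**Figure D1:**
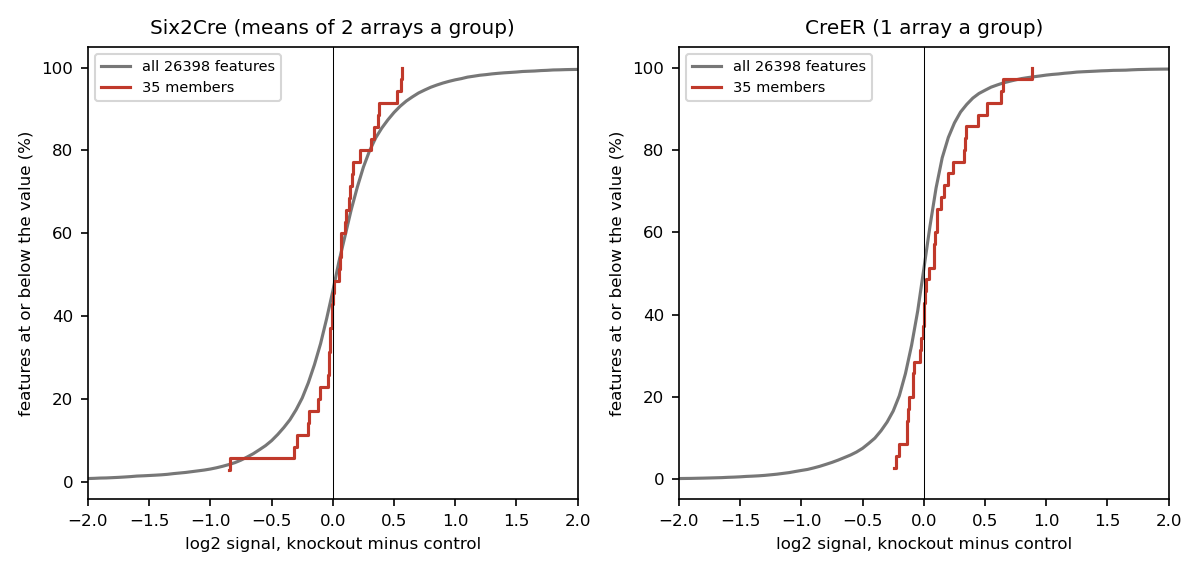
Cumulative share of features (vertical axis, percent at or below a value) against the difference between knockout and control (horizontal axis, log2), in the Six2Cre line on the left and the CreER pair on the right, for all 26398 features (grey) and the 35 members (red). In the Six2Cre line the members run from -0.85 for Bcl2 to 0.57 for Pmaip1, and both curves cross 50% near 0.

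The within-slide pairs show how far a member moved between replicates of the comparison. On slide 1 the median member difference was 0.13, with 25 higher and 10 lower, and on slide 2 it was -0.04, with 14 higher and 21 lower. In the CreER pair the median was 0.04, beside -0.01 over all features. Across all 3 pairs, 7 members were higher each time and 3 were lower each time, where 20.1% and 14.3% of all features were. No member was 1.5-fold apart in the same direction in both slide pairs, while 7.73% of all features were.

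The groups that do not overlap single out a handful of members. In the Six2Cre line both knockouts lay above both controls for 5 members (14.3%), Birc2, Casp6, Fas, Pmaip1 and Sesn1, against 17.6% of all features. Both knockouts lay below both controls for 2 members (5.71%), Bcl2 and Bcl2l11, against 12.6% of all features. Over all 6 arrays the 3 knockouts lay above the 3 controls for Fas and Sesn1 (5.71%), against 6.81% of all features, and below them for Bcl2 alone among the members (2.86%), against 4.44%. For Sesn1 the separation over all 6 arrays held on its brightest probe only. These shares of members were near or under those of all features. Without Six2Cre control 2, the array with muscle signal, the Six2Cre differences were -0.75 for Bcl2, 0.50 for Fas, 0.52 for Sesn1 and 0.54 for Pmaip1, within 0.10 of their values with it. Leaving out a control moves a difference with the gap between the 2 controls, which was 0.19, 0.11, 0.02 and 0.05 for these members. The gap was wider for Trp53 and Cdkn1a, whose differences were -1.62 and 1.13 without control 2. The part of the muscle signal was not tested. Without knockout 9 the difference was -1.28 for Bcl2 and 0.35 for Pmaip1.

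**Figure D2:**
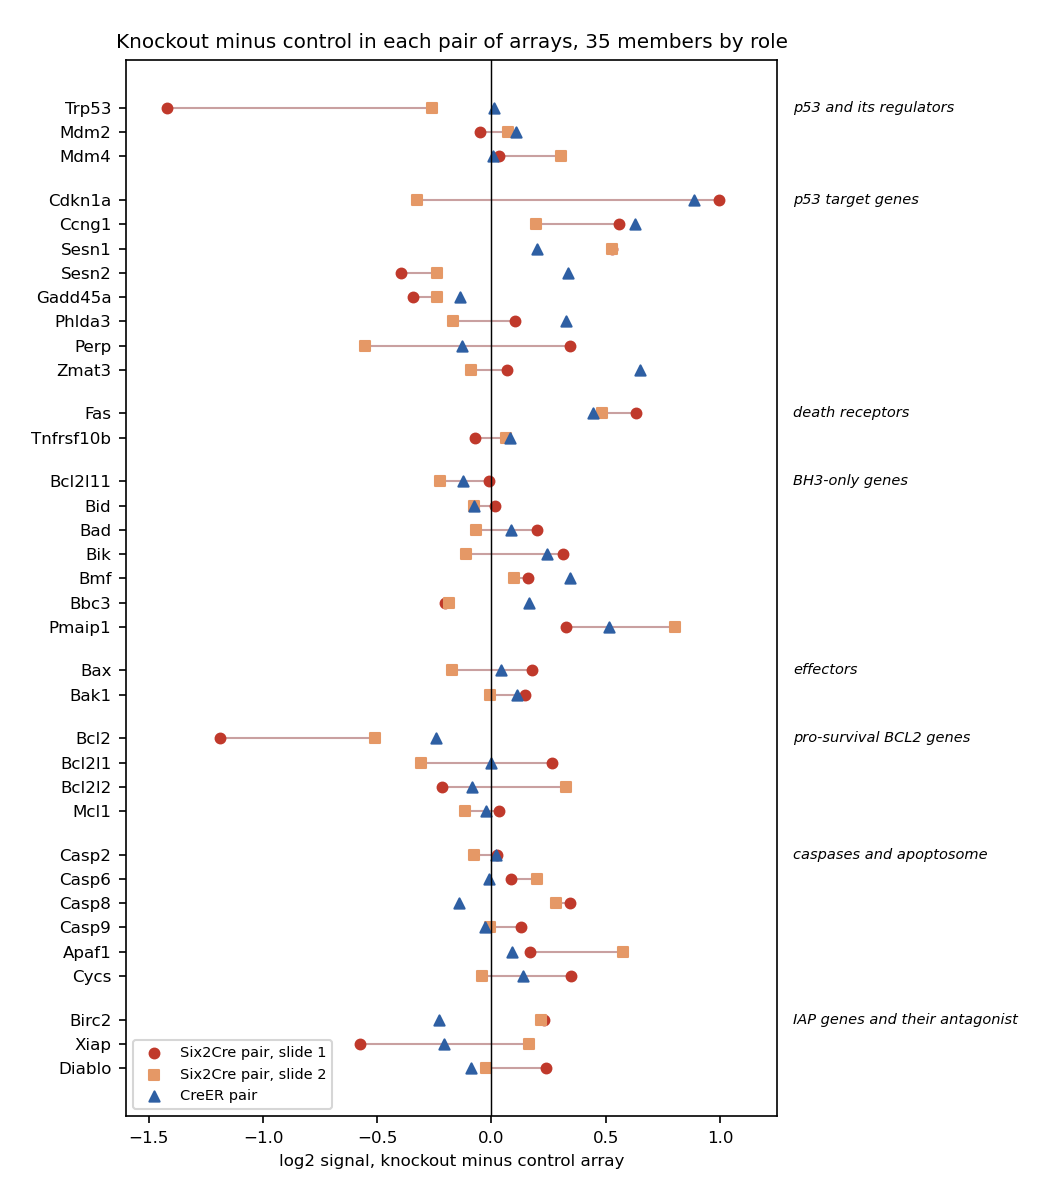
Differences (log2, knockout minus control) of the 35 tested members, ordered by role on the vertical axis, with separate marks for the slide 1 Six2Cre pair, the slide 2 Six2Cre pair and the CreER pair. Most marks lie close to 0, and Bcl2 lies below 0 and Fas, Sesn1, Pmaip1 and Ccng1 above it in all 3 pairs. The brightest probe of each gene is shown.

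Trp53, which encodes p53, gave no agreeing answer from its probes. Its brighter probe read 1.19 and -0.37 on the Six2Cre controls 5 and 2, -0.23 and -0.63 on the knockouts 7 and 9, and -0.56 and -0.54 on the CreER control and knockout. The high value of control 5 sets this probe's Six2Cre difference of -0.84 (SE 0.58), and without that array the difference was -0.06. The other Trp53 probe read 0.02 and -0.58 on the same controls, 0.11 and -0.38 on the knockouts, and -0.51 and -0.37 in the CreER pair. Its Six2Cre difference was 0.15, with 0.09 and 0.21 in the slide pairs, and no direction is given for Trp53.

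The genes that restrain p53 were close to their controls. Mdm2, the ubiquitin ligase that degrades p53 and itself a p53 target, read 0.77 and 0.38 on the Six2Cre controls 5 and 2 and 0.72 and 0.45 on the knockouts 7 and 9. Its groups overlapped, the difference was 0.01 (SE 0.28), and its 95% interval ran from -0.74 to 0.76. Mdm2 was 0.36 on the CreER control and 0.47 on the CreER knockout. The other Mdm2 probe differed by -0.48 on slide 1 and 0.19 on slide 2. Mdm4, the relative of MDM2 that masks the p53 activation domain, differed by 0.17 on its brightest probe, and its other probes differed by -0.58 and 0.37. Among the 15 members that several probes read, the sign of the Six2Cre difference depended on the probe for 7, and Mdm4 was the only one with at least 0.20 in each direction.

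**Figure D3:**
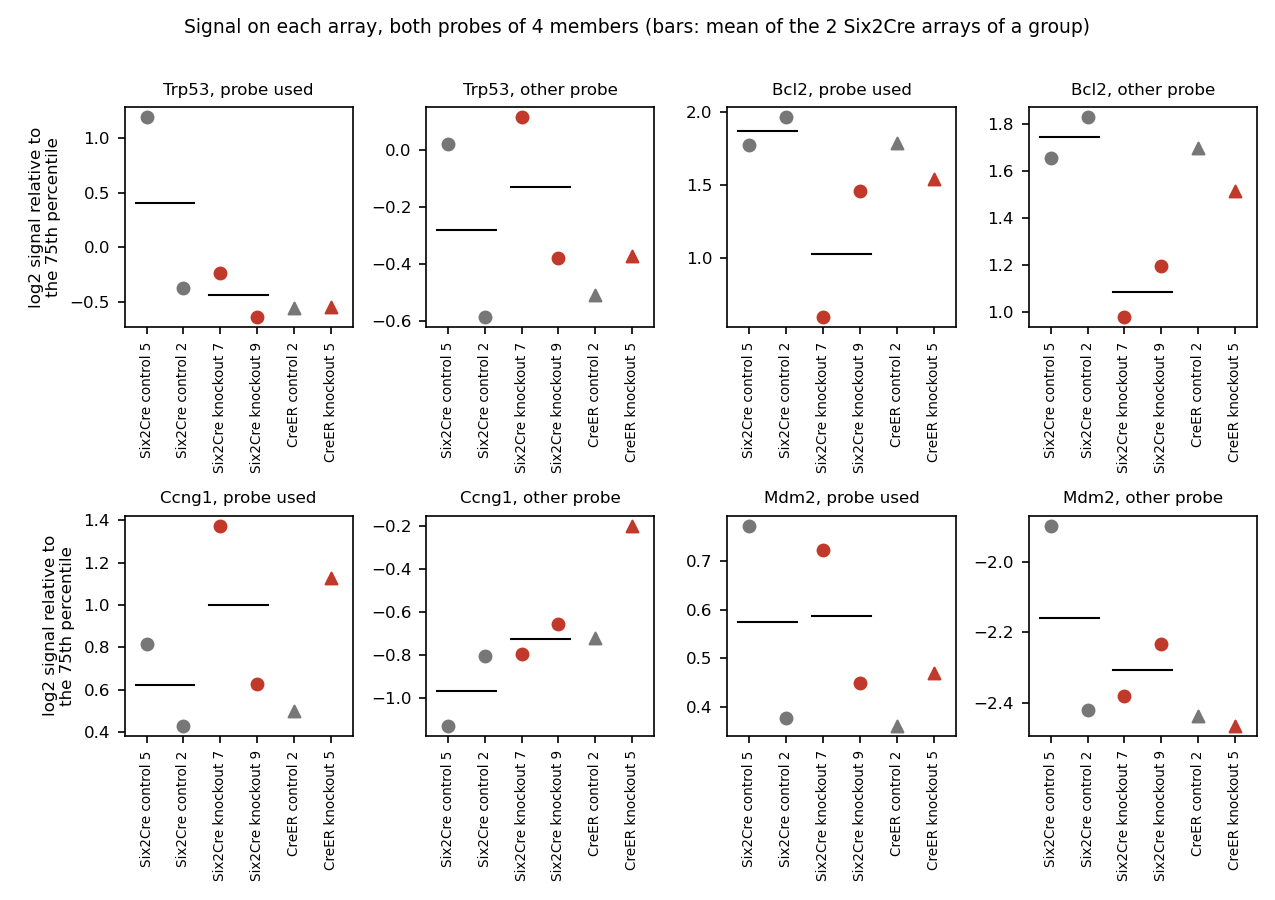
Log2 signal relative to the 75th percentile (vertical axis) on each of the 6 arrays for both probes of Trp53, Bcl2, Ccng1 and Mdm2, with controls in grey, knockouts in red, Six2Cre arrays as circles, CreER arrays as triangles, and a bar at the mean of each Six2Cre group of 2. The Trp53 probes differ on Six2Cre control 5 (1.19 on one, 0.02 on the other), while both Bcl2 probes place every knockout below every control.

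For the p53 targets the sequence before the start site is of interest, since p53 binds DNA through pairs of a degenerate 10-base element, the p53 half-site. RefSeq promoter windows (GRCm38.p6) were matched for 32 of 37 members, and the 250 bases before each start were searched for the half-site with no mismatch. The element is its own reverse complement, so 1 strand covers both. Of these 32 members, 8 (25%) held at least 1 half-site, against 8.20% of all genes and 7.13% of all windows of that length. The members were Bax, Bmf, Ccng1, Cdkn1a, Gadd45a, Mdm2, Sesn1 and Trp53. The member list holds p53 targets by choice, and genes have unequal numbers of windows. A match is only a description of the letters, and no match says nothing of binding elsewhere. The windows shown are those of Ccng1, Cdkn1a and Sesn1, targets with a half-site that are described next. Beside them are windows without a half-site, those of Bcl2 and of Fas, itself a p53 target. For Bcl2 and Fas the 3 knockout arrays lay apart from the 3 controls. Capitals mark the half-sites, each sequence reads 5′ to 3′ towards the gene, and its last base is next to the start site.
Ccng1, chr11:40755287-40755536, minus strand: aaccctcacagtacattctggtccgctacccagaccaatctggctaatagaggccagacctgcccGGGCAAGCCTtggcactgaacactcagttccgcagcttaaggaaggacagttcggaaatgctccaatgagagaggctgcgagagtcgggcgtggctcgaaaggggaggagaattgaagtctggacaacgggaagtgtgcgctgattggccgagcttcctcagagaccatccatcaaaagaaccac
Cdkn1a, chr17:29090729-29090978, plus strand: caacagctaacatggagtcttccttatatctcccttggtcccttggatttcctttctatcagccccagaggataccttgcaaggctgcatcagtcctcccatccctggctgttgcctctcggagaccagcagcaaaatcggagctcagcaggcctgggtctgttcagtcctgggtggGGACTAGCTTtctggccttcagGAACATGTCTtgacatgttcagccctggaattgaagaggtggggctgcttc
Sesn1, chr10:41887189-41887438, plus strand: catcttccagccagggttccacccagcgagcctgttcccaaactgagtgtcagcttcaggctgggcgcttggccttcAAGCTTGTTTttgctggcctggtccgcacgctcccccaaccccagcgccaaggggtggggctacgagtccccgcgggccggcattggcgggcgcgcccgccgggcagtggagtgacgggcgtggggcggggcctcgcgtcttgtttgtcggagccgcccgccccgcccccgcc
Bcl2, chr1:106714291-106714540, minus strand: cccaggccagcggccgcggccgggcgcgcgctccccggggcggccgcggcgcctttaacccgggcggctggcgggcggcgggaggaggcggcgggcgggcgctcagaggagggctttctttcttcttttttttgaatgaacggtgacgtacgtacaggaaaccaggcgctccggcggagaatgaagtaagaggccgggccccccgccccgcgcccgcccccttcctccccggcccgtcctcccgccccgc
Fas, chr19:34290409-34290658, plus strand: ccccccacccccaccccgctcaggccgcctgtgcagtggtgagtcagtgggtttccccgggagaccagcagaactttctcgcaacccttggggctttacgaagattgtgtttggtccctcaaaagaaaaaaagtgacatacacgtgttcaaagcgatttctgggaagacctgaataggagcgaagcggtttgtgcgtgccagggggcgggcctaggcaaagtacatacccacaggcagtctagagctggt
The Ccng1 window holds GGGCAAGCCT, whose first base lies 185 bases before the start, and the Sesn1 window holds AAGCTTGTTT at 173 bases. The Cdkn1a window holds GGACTAGCTT at 73 and GAACATGTCT at 51 bases before the start, and only 0.259% of all windows (85 windows) held 2 or more. Cdkn1a and Sesn1 each have a further window without a half-site, and the Bcl2 and Fas windows hold none.

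Fas, Pmaip1, Bbc3, Bax and Mdm2 are also p53 targets but are counted here under other roles. In the Six2Cre line they differed by 0.56, 0.57, -0.20, 0.00 and 0.01. Of the 8 genes with the role of p53 target, 3 were higher and 5 lower in the Six2Cre line, with a median of -0.02. In the CreER pair 6 of these 8 were higher, with a median of 0.33. The slide pairs pulled apart, with a median of 0.22 on slide 1 and -0.20 on slide 2. Sesn1, which encodes a stress protein that restrains the growth kinase mTORC1, read 1.89 and 1.88 on the Six2Cre controls 5 and 2 and 2.42 and 2.41 on the knockouts 7 and 9. The replicates agreed within 0.02 and the difference was 0.53 (SE 0.24). On the CreER arrays Sesn1 was 1.92 in the control and 2.12 in the knockout. The other Sesn1 probes differed by 0.71 and 0.60 in the Six2Cre line and by -0.14 and -0.03 in the CreER pair, so its higher value in the CreER knockout rests on 1 of 3 probes.

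Cdkn1a, which encodes the cell cycle inhibitor p21, was read on a wide range. It was -1.98 and -0.38 on the Six2Cre controls 5 and 2, -0.98 and -0.71 on the knockouts 7 and 9, and -0.59 and 0.30 on the CreER control and knockout. The Six2Cre controls lay 1.60 apart and enclosed both knockouts, with a difference of 1.00 on slide 1 and -0.33 on slide 2. The Six2Cre difference was 0.33 (SE 0.58), and the CreER knockout was 1.85-fold above its control.

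Ccng1, which encodes cyclin G1, was higher in each of the 3 pairs. It read 0.82 and 0.43 on the Six2Cre controls 5 and 2, 1.37 and 0.63 on the knockouts 7 and 9, and 0.50 and 1.13 on the CreER control and knockout. The Six2Cre groups overlapped, since knockout 9 lay below control 5, and the difference of 0.38 (SE 0.36) was 0.00 without knockout 7. The other Ccng1 probe differed by 0.33, 0.15 and 0.52 in the slide 1, slide 2 and CreER pairs, the same directions.

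Zmat3, which encodes an RNA-binding protein induced by p53, had the lowest p of the members for the difference between lines. It read 0.00 and -0.29 on the Six2Cre controls 5 and 2 and 0.07 and -0.38 on the knockouts 7 and 9, a difference of -0.01 (SE 0.29). In the CreER pair it was -0.62 on the control and 0.03 on the knockout, 1.57-fold higher. The difference between the lines was 0.66, with an unadjusted p of 0.252 by limma. The test of a difference between lines takes the spread of the single CreER arrays from the Six2Cre groups, since the CreER pair has none of its own.

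In the CreER pair, 3 members (8.57%), Cdkn1a, Zmat3 and Ccng1, were at least 1.5-fold higher, against 4.35% of all features. All 3 have the role of p53 target, but so do 8 of the 35 tested members by choice of the list. Fas, Pmaip1, Bbc3, Bax and Mdm2 are further targets under other roles and stayed under 1.5-fold. No member was 1.5-fold lower, against 6.12% of all features, and none reached 2-fold in either direction, against 1.83% of features higher and 2.17% lower. The CreER groups have 1 array each, so these differences have no error and no test. On the same knockout array all 9 erythroid and blood markers were higher, with a median of 0.79 and a summed level of 336 against 194 on its control. Their part in the result was not tested, nor was that of the higher negative control spread of this array.

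The remaining genes with the role of p53 target were spread around 0. Sesn2, the relative of Sesn1, differed by -0.32 in the Six2Cre line and 0.34 in the CreER pair. Gadd45a, a gene of growth arrest and DNA damage, was lower in each pair, by -0.35, -0.24 and -0.14. Phlda3, which encodes an inhibitor of AKT, differed by -0.03 in the Six2Cre line and 0.33 in the CreER pair. Perp, which encodes a membrane protein of desmosomes and of p53-dependent death, differed by -0.11 and -0.13. The slide pairs of Perp (0.34 and -0.55) opposed each other.

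Of the death receptors, Fas, the receptor of Fas ligand, was higher in every knockout array than in every control array. It read -2.70 and -2.81 on the Six2Cre controls 5 and 2, -2.06 and -2.33 on the knockouts 7 and 9, and -2.90 and -2.46 on the CreER control and knockout. The slide 1, slide 2 and CreER pairs differed by 0.63, 0.48 and 0.44, and the Six2Cre difference was 0.56 (SE 0.25). Fas is also made by stromal and immune cells, and in the same Six2Cre comparison 10 of 11 stroma markers and 19 of 27 macrophage and engulfment markers were higher. The summed stroma level was 120 and 99.5 on the controls against 196 and 169.7 on the knockouts, while the summed macrophage level was 45.3 and 54.2 against 41.2 and 47.6. Their part in the Fas result was not tested. Tnfrsf10b, the mouse receptor of the TRAIL ligand, differed by -0.01 (SE 0.29).

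The BH3-only genes had 4 members higher and 3 lower of 7 tested in the Six2Cre line, with a median of 0.07, and 5 higher and 2 lower in the CreER pair, with a median of 0.16. The Six2Cre median has no settled sign, since it lay between -0.0704 and -0.0396 with each Six2Cre array omitted in turn. Pmaip1, which encodes NOXA, a p53-induced antagonist of MCL1, read -2.25 and -2.30 on the Six2Cre controls 5 and 2 and -1.92 and -1.50 on the knockouts 7 and 9. The CreER control read -1.73 and the CreER knockout -1.22. The Six2Cre groups did not overlap, the difference was 0.57 (SE 0.28), and each of the 3 pairs was higher (0.33, 0.80 and 0.51). Over all 6 arrays the groups did overlap, since the CreER control lay above Six2Cre knockout 7.

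Bbc3, which encodes PUMA, the other BH3-only protein best known as a p53 target, did not share that pattern. It read 1.35 and 1.08 on the Six2Cre controls 5 and 2, 1.15 and 0.89 on the knockouts 7 and 9, and 1.27 and 1.44 in the CreER control and knockout. Its slide pairs differed by -0.20 and -0.19 and the CreER pair by 0.16. Bcl2l11, which encodes BIM, read 1.56 and 1.69 on the Six2Cre controls, 1.55 and 1.46 on the knockouts, and 1.70 and 1.58 on the CreER control and knockout. Its Six2Cre groups did not overlap, yet the difference was only -0.12 (SE 0.24), -0.01 of it on slide 1, and its other probe differed by 0.01. Bid, which caspase 8 cleaves to join the receptor and mitochondrial pathways, differed by -0.03 in the Six2Cre line, Bad by 0.07, Bik by 0.10 and Bmf by 0.13.

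The effector genes, whose products open the mitochondrial outer membrane, lay close to their controls. Bax read 1.62 and 2.00 on the Six2Cre controls 5 and 2, 1.80 and 1.82 on the knockouts 7 and 9, and 2.14 and 2.18 on the CreER control and knockout. Both knockouts lay between the controls and the difference was 0.00 (SE 0.27). Over both lines the 95% interval of the Bax difference ran from -0.34 to 0.37. Bak1 differed by 0.07 in the Six2Cre line and 0.11 in the CreER pair.

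Bcl2, the founding pro-survival gene, had the lowest difference of the members. It read 1.78 and 1.97 on the Six2Cre controls 5 and 2, 0.59 and 1.46 on the knockouts 7 and 9, and 1.79 and 1.54 on the CreER control and knockout. Every knockout array lay below every control array, by the most in Six2Cre knockout 7 and by the least in the CreER pair (-1.19, -0.51 and -0.24 for the slide 1, slide 2 and CreER pairs). The Six2Cre signal was 1.80-fold lower (difference -0.85, SE 0.37, limma adjusted p = 0.903), and without knockout 7 the difference was -0.41.

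The other Bcl2 probe, annotated to another RefSeq transcript of the gene, gave the same order. It read 1.66 and 1.83 on the Six2Cre controls 5 and 2, 0.98 and 1.19 on the knockouts 7 and 9, and 1.70 and 1.52 on the CreER control and knockout. Its pairs differed by -0.68, -0.64 and -0.18, so that on this probe the slide pairs were nearly equal. Bcl2 is known to be made in the condensing mesenchyme of the fetal kidney, and the nephron progenitor markers were lower beside it, by a median of -1.12 on slide 1, -1.19 on slide 2 and -0.25 in the CreER pair. The early nephron and tubule markers had Six2Cre and CreER medians of -1.59 and -0.15. The part of these cells in the Bcl2 value was not tested.

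The other pro-survival genes had mean differences within 0.10 of 0 in the Six2Cre line, where the slide pairs of Bcl2l1 (0.26 and -0.31) and Bcl2l2 (-0.22 and 0.33) opposed each other. Mcl1, a short-lived BCL2 relative, differed by -0.04 (SE 0.24), Bcl2l1, which encodes BCL-XL, by -0.02 (SE 0.27), and Bcl2l2, which encodes BCL-W, by 0.05 (SE 0.29). In the CreER pair all 4 genes of this group were lower, with a median of -0.05, and Bcl2 was the lowest.

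The caspase and apoptosome genes had 5 of 6 members higher in the Six2Cre line, with a median of 0.15, and 3 of 6 in the CreER pair, with a median of 0.01. Casp6, an executioner caspase, read 3.21 and 3.05 on the Six2Cre controls 5 and 2 and 3.30 and 3.25 on the knockouts 7 and 9. The CreER control and knockout read 3.04 and 3.03. The Six2Cre groups did not overlap, but the difference of 0.14 (SE 0.24) was smaller than the gap of 0.16 between the controls. Apaf1, the scaffold of the apoptosome, differed by 0.37 (SE 0.57) and Casp8, the initiator downstream of death receptors, by 0.31 (SE 0.33), and the groups of both genes overlapped. Cycs differed by 0.15, Casp9 by 0.06 and Casp2 by -0.03.

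Of the genes around the IAP proteins, which bind and inhibit caspases, Birc2 was higher in the Six2Cre line and lower in the CreER pair, without passing the test of that difference. Birc2, which encodes cIAP1, read 1.13 and 0.93 on the Six2Cre controls 5 and 2, 1.36 and 1.14 on the knockouts 7 and 9, and 1.09 and 0.86 on the CreER control and knockout. Its pairs differed by 0.23, 0.22 and -0.23, and limma gave the difference between lines of -0.45 an unadjusted p of 0.36. Xiap differed by -0.21 in the Six2Cre line, where its slide pairs (-0.58 and 0.16) opposed each other, and by -0.21 in the CreER pair. Diablo, which encodes the IAP antagonist SMAC, differed by 0.11 and -0.09. Of the 35 members, limma called 0 in the difference between lines at an adjusted p under 0.05 (0% of all features), and 0 at an unadjusted p under 0.05 (2.33% of all features).

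**Figure D4:**
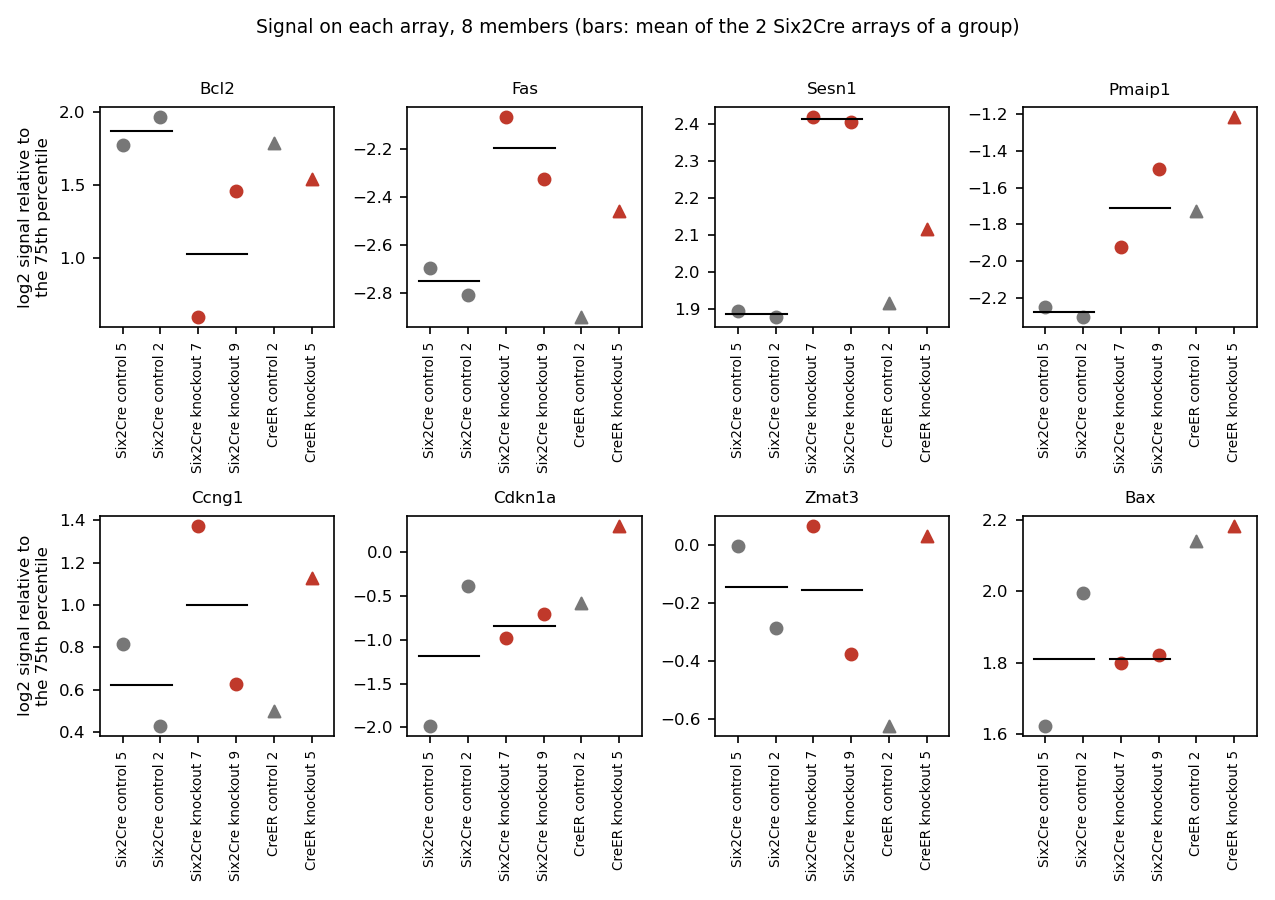
Log2 signal relative to the 75th percentile (vertical axis) on each of the 6 arrays for 8 members, with controls in grey, knockouts in red, Six2Cre arrays as circles, CreER arrays as triangles, and a bar at the mean of each Six2Cre group of 2. The knockout arrays lie below the controls for Bcl2 and above them for Fas and Sesn1, and the groups overlap for Cdkn1a and Bax. Each gene is shown by its brightest probe.

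The 3 knockout and 3 control arrays were also fitted together, with line and slide as covariates. This comparison shares its arrays with those above and narrows the median 95% interval of a member to 0.37 to either side. The median of the members was 0.04, beside 0.01 over all features, with 23 higher and 12 lower. Limma called 0 of 35 members and 0% of features at an adjusted p under 0.05, and 5 members (14.3%) at an unadjusted p under 0.05, against 9.71% of all features. Higher at that level were 4 members (11.4%), against 5.79% of all features, and lower was 1 (2.86%), against 3.92%.

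The 4 higher members encode a death receptor, a BH3-only protein, a cyclin and a stress protein. Fas was 0.52 higher (SE 0.12, limma adjusted p = 0.401), with a 95% interval from 0.20 to 0.84. Pmaip1 was 0.55 higher (SE 0.15, limma adjusted p = 0.435), with an interval from 0.15 to 0.95. The values of Ccng1 and Sesn1 were 0.46 (SE 0.14) and 0.42 (SE 0.13), each with a limma adjusted p of 0.464. The other Sesn1 probes were lower in the CreER knockout than in its control. These 4 were picked by that p, so their 95% intervals leave out 0 by construction. All 4 are known p53 targets, which the member list holds by choice. Other targets did not reach that p, namely Bbc3 (-0.08), Bax (0.01), Mdm2 (0.04) and Perp (-0.11). Nor did Cdkn1a (0.52), Zmat3 (0.21), Phlda3 (0.09), Sesn2 (-0.10) and Gadd45a (-0.24). The lower member was Bcl2, at -0.65 (SE 0.22, limma adjusted p = 0.496), with an interval from -1.26 to -0.04. Its value was -0.38 without Six2Cre control 5 or without knockout 7.

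Beyond the members, 37 other genes of the p53 pathway were tested of 39 names listed (Eda2r was not well above background, and the name Tp53bp1 matched no probe). They had a median of 0.05 in the Six2Cre line, with 20 higher and 17 lower, and 0.07 in the CreER pair, and limma called none at an adjusted p under 0.05. The Six2Cre knockouts lay above the controls for 6 of them and below for 5, near the 17.6% and 12.6% of all features. Among those 6, the largest values were those of Btg2, an antiproliferative p53 target (0.61), Ddit4, a stress inhibitor of mTORC1 (0.52), and Rchy1, a p53 ubiquitin ligase (0.35). The largest below the controls were those of the stress kinase gene Plk3 (-0.50), Pidd1, a death domain scaffold that activates caspase 2 (-0.36), and the checkpoint kinase gene Chek2 (-0.30). Over both lines 3 of the 37 were higher at an unadjusted limma p under 0.05 and 0 lower, against 5.79% and 3.92% of all features. These were Trp53inp1 (0.42), Plk2 (0.42) and Ephx1 (0.38), chosen after their values were seen, and each was higher in all 3 pairs.

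Of 42 other apoptosis genes 38 were tested, and their largest differences exceeded those of every member. Their median was 0.01 in the Six2Cre line and 0.05 in the CreER pair, and again none passed at an adjusted p under 0.05 over all features. At an unadjusted limma p under 0.05 in the Six2Cre line, 3 were higher and 2 lower, against 6.34% of all features in either direction, and 1 of the 3, Tnfsf10, was kept only through the arrays where it is high.

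Cidea, a lipid droplet protein with a domain shared by the apoptotic DNA fragmentation factors, had the lowest value. It read -4.57 and -3.54 on the Six2Cre controls 5 and 2, -7.23 and -6.74 on the knockouts 7 and 9, and -3.88 and -5.24 on the CreER control and knockout. The knockouts lay below the controls in both lines, 7.61-fold in the Six2Cre line (difference -2.93, SE 0.44, limma adjusted p = 0.191). With normexp background correction, which compresses dim signals, the difference was -1.29. Tnfrsf21, a death receptor gene, was lower by less (difference -0.54).

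The higher genes of this list were inflammatory caspases and a death ligand. Casp12, a caspase gene of the inflammatory group, read -2.52 and -3.15 on the Six2Cre controls 5 and 2 and -0.74 and -1.35 on the knockouts 7 and 9, a difference of 1.79 (SE 0.37, limma adjusted p = 0.331). In the CreER pair it was -3.36 on the control and -3.85 on the knockout, and limma gave the difference between lines an unadjusted p of 0.0185 (adjusted p = 1.00). Casp1, the caspase that processes interleukin 1 beta, was -2.97 and -2.90 on the Six2Cre controls and -2.10 and -1.97 on the knockouts (difference 0.90, SE 0.24), and -3.00 and -2.91 in the CreER pair. Tnfsf10, which encodes TRAIL, was not well above background on either Six2Cre control, and its knockout mean lay 2.18-fold above a floor set for the controls. That floor is, on each control array, the higher of its dimmest signal well above background and the Tnfsf10 signal itself. It is not a limit on the control level, so the size of the difference is not settled. Tnfsf10 was kept only through the 2 Six2Cre knockouts, the arrays where it is high, so its test is not used, and with normexp background correction the fitted difference was 0.19. The macrophage and engulfment markers were higher by a median of 0.52 and the stroma markers by 0.88 in the same comparison, and their part in these values was not tested.

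**Figure D5:**
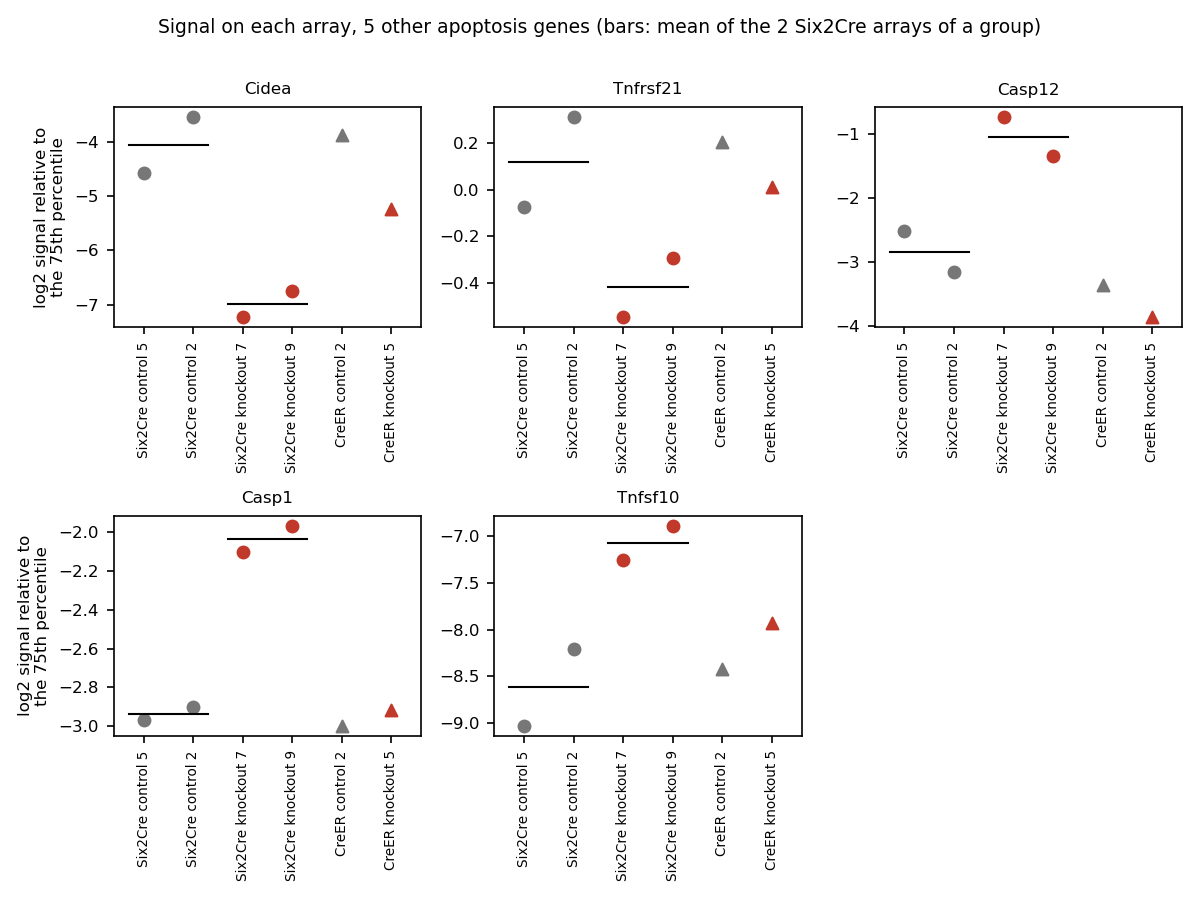
Log2 signal relative to the 75th percentile (vertical axis) on each of the 6 arrays for 5 apoptosis genes outside the 37 members, with controls in grey, knockouts in red, Six2Cre arrays as circles, CreER arrays as triangles, and a bar at each Six2Cre group's mean. Cidea and Tnfrsf21 were lower and Casp12, Casp1 and Tnfsf10 higher on both Six2Cre knockouts than on both controls, and the Tnfsf10 controls are not well above background.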

How the data were processed

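Per the labels' protocols, 0.25 ug of total RNA per sample was labelled with Cy3. The authors deposited scanner files from Feature Extraction 10.5.1.1, whose processed signal is a linear intensity, background-subtracted and not scaled across arrays, per the file headers. The deposited series table repeats this intensity (100% of values within a relative tolerance of 0.001). No further processing is given in the sources used here. Of 41174 probes, 40987 had an unflagged spot on every array, and 24999 were named by RefSeq accession (17235 genes). Spots of a probe were averaged, and features well above background on at least 2 arrays were kept. The log2 intensity minus the array's 75th percentile was fitted with limma 3.58.1 (R 4.3.3, data.table version 1.17.8, lmFit and eBayes, two-sided, Benjamini-Hochberg over all 26398 features, threshold 0.05), after a test on simulated data. One fit held the 4 groups, with the spread of the lone CreER arrays taken from the Six2Cre arrays, and the other took genotype with line and slide over all 6 arrays. Figures used Python 3.11.15 and matplotlib 3.10.9. Arrays give no depth, and their number limits the precision.

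Members, lists and tests were chosen with earlier results of these data known. Values on every array are given for Trp53, Mdm2, Cdkn1a, Bax, Bbc3, Pmaip1, Bcl2, Bcl2l11 and Sall1, for members whose Six2Cre groups do not overlap and for members at least 1.5-fold apart in the CreER pair or in both slide pairs. From the lists of other p53 pathway and other apoptosis genes, up to 3 genes in each direction were named by largest Six2Cre difference among those whose groups do not overlap. One gene that this rule names is not reported here. Lists were described by counts and medians and not tested. Summed marker levels are sums of the linear signal relative to the 75th percentile. Besides those in the text, 5 marker lists were read, with Six2Cre medians of 0.07 for endothelium, -0.22 for neural crest and neurons, -0.12 for proliferation, 0.04 for immediate early stress genes and 0.23 for the ureteric bud. The alternatives tried were quantile normalization, normexp background correction (offset 50), the series table, other filters on dim probes, the mean of a gene's probes, slide as a block with and without eBayes trend and robust, the Six2Cre arrays alone and leaving out each array.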

Additional observations from a re-analysis of the deposited data

How the results depend on the processing

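No pairing by replicate was possible because the Six2Cre groups share no replicate number and neither do the CreER groups. The only pairing was by slide, fitted as a block, and with it limma called no member. Of 964 values recomputed under the alternatives, 703 of the single genes kept their direction and side of the threshold. Of the main results, 216 moved by less than the spread between replicates or 1.5 times a count (medians near 0 could turn sign within that). As given here, 21 main results moved by more and 21 single-gene values turned sign. Counts of members without overlap change with the number of arrays left in a group, and the cause of the other changes was not tested. With slide as a block and eBayes trend and robust, 627 features passed in the Six2Cre comparison (2.38%) and 12 over both lines (0.0455%), none of them members (lowest member adjusted p 0.123 and 0.271 by limma). In that setting limma's adjusted p was 0.029 for Sall1 (-1.25), 0.012 for Casp12 (1.79) and 0.00984 for Cidea (-2.93). With normexp, 36 features passed over both lines. With quantile normalization, 2 members lay lower on all 3 knockouts than on all 3 controls. With the mean of a gene's probes, 1 member lay lower on both Six2Cre knockouts and 1, Xiap, was 1.5-fold lower in the CreER pair. Of the 3 Xiap probes, 1 differed by -1.59 there, and it was well above background on only 5 of the 6 arrays. The others differed by -0.21 and -0.13. The Six2Cre arrays alone give no value for results that use the CreER arrays.

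Leaving out 1 array at a time, the fit pooled the spread and the lone array of a group was assumed to vary like the others. The calls over all features stayed at 0. Members without overlap then numbered 6 to 16 higher and 2 to 13 lower in the Six2Cre line, and 2 to 7 and 1 to 3 over all arrays. Groups with fewer arrays overlap less readily, so such counts rise by construction and are no result about the members. The shares of all features in these settings are not given. The Six2Cre median of the members ran from 0.00479 to 0.0806 and that over both lines from 0.0497 to 0.0737. By role, the Six2Cre medians ran from -0.0704 to -0.0396 for BH3-only genes (0.07 with all arrays), -0.0144 to 0.148 for caspases, -0.115 to 0.198 for p53 targets and -0.123 to 0.0168 for pro-survival genes.

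Values that turned sign were near 0 or rested on 1 array. In the Six2Cre line Mdm2 was -0.00107 with quantile normalization and -0.0683 with the mean of its probes (-0.032 over both lines), and it ran from -0.187 to 0.209 when 1 array was left out. Bax was -0.00623 with quantile normalization and -0.00777 with normexp, and ran from -0.185 to 0.186 when 1 array was left out (-0.0662 to 0.108 over both lines). Zmat3 was 0.0292 with normexp and ran from -0.232 to 0.21 (-0.0109 to 0.36 over both lines). Cdkn1a ran from -0.464 without Six2Cre control 5 to 1.13 without control 2. Over both lines, Birc2 ran from -0.00619 to 0.223 and Pidd1 from -0.364 to 0.0184.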

Other observations

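Some members were separated by slide on their brightest probe. Apaf1 was 0.86 and 1.03 on the slide 1 arrays, Six2Cre control 5 and knockout 7, and between -0.47 and 0.13 on the 4 slide 2 arrays, so its Six2Cre controls lay 1.30 apart. Bik was -3.15 and -2.84 on slide 1 and between -2.29 and -2.05 on slide 2. Xiap was -0.96 and -1.53 on slide 1 and between -2.30 and -1.89 on slide 2. These separations are larger than the knockout differences of 0.37, 0.10 and -0.21 of the same genes, and slide 2 also held both CreER arrays. For Apaf1 and Xiap they depended on the probe. Another Apaf1 probe was separated the same way, but a further one was lower on slide 1 (-5.41 and -5.40) than on slide 2 (-5.20 to -4.84). The other Xiap probes overlapped between the slides.

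Proliferation genes were lower on both Six2Cre knockouts than on both controls for 8 of 17 members and higher for 0, against 12.6% and 17.6% of all features, with medians of -0.02 on slide 1 and -0.28 on slide 2 and 0.00 in the CreER pair. Immediate early stress genes, which respond to handling of tissue, had 8 of 14 members higher in the Six2Cre line with a median of 0.04.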
